A study of Mus musculus with 12 samples.

Results

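The 32 genes described here encode proteins of the postsynaptic side of the synapse, and they were taken by name from a fixed list rather than by a cut on their values. The list was drawn up with earlier results of these data known. All 32 were found among the 27179 gene IDs of each library's table. They fall into 7 roles. Dlg1, Dlg2, Dlg3 and Dlg4 are the 4 PSD-95 family scaffolds, with Dlg4 encoding PSD-95 itself. Dlgap1 to Dlgap4 encode the SAPAP proteins, which bind the guanylate kinase domain of PSD-95 and also bind SHANK, and Begain, whose product binds the same domain, was grouped with them as the fifth. Shank1, Shank2, Shank3, Homer2 and Homer3 are the 5 deeper scaffolds. Camk2a, Camk2b, Camk2g and the calmodulin-binding protein gene Nrgn are the 4 genes of CaMKII and calmodulin signalling. Iqsec1, Iqsec2, Psd3, Kalrn, Sipa1l1, Agap2 and Baiap2 are 7 regulators or effectors of small GTPases. Cnksr2, Anks1b, Tnik, Grip1 and Pick1 are 5 adaptor, kinase and receptor trafficking genes, and Gphn and Iqsec3 are the 2 genes of inhibitory postsynapses.

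At excitatory synapses of the hippocampus the postsynaptic density is a layered protein mesh under the membrane. PSD-95 family proteins hold glutamate receptors at the surface, SAPAP proteins link them to SHANK, and SHANK and Homer reach toward metabotropic receptors and the actin cytoskeleton. CaMKII, the most abundant kinase of this structure, is switched on by calcium and calmodulin and is required for long-term potentiation, while GTPase regulators reshape the spine. Inhibitory synapses use a different scaffold, built on gephyrin.

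The genes were followed by mRNA-Seq in 12 libraries from C57BL/6 mice, 3 in each of 4 groups. The shBrpf1 CA1 group was hippocampal CA1 tissue of mice aged 8 weeks that had received AAV2-shBrpf1-GFP by stereotactic injection at 4 weeks, and the scramble CA1 group had received AAV2-scramble-GFP. The shBrpf1 neurons were primary hippocampal neurons infected at day 3 in vitro with AAV2-shBrpf1-GFP, and the scramble neurons were infected with AAV2-scramble-GFP. All 4 groups therefore carried an AAV2 vector and GFP, and the cells of CA1 were not sorted, so infected and uninfected cells were read together. The labels give an embryonic age of day 18 to 19 for the cultures but another age in the culture protocol, they call the source of all libraries neural progenitor cells, and they do not say which mouse, side or culture each library came from. p-values therefore measure the spread between these libraries, which may in part be technical. The design asked what partial loss of Brpf1, a scaffold of MOZ/MORF histone acetyltransferase complexes, does in both systems.

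Total counts ran from 18330618 to 30275304 per library. The 32 genes together took 1.58 to 1.95% of the counts in CA1 and 0.583 to 1.12% in neurons, and the lowest count of any of them in any library was 198, so all 32 passed the filter of 10 counts in 3 libraries in every comparison. In the 6 CA1 tables all 972 gene IDs of chromosome 13 were at 0, among them 438 with at least 50 counts in all 6 neuron libraries, where chromosome 13 took 3.05 to 3.38% of counts. The IDs of chromosome Y were at 0 in CA1 as well. None of the 32 genes lies on chromosome 13, and the shares of all genes called between CA1 and neurons are given with and without it. Markers of the labelled cells were present in all libraries: the 18 pan-neuronal genes summed to 6834 to 9755 CPM (TMM-scaled counts per 1000000) in shBrpf1 CA1, 7943 to 10249 in scramble CA1, 5346 to 9692 in shBrpf1 neurons and 3730 to 8638 in scramble neurons. The 9 CA1 pyramidal genes summed to 626 to 810 CPM in shBrpf1 CA1, 397 to 783 in scramble CA1, 200.1 to 544 in shBrpf1 neurons and 165 to 510 in scramble neurons. Markers of neighbouring fields were present too. In the same 4 groups, 8 CA2 and CA3 pyramidal genes summed to 415 to 721, 503 to 897, 1459 to 1723 and 1311 to 1874 CPM. For 7 dentate granule cell genes the sums were 470 to 561, 443 to 580, 99.5 to 192 and 98.3 to 165 CPM. These sums do not show how much of the CA1 tissue came from other fields. Glial lists differed in both directions. The 12 oligodendrocyte genes summed to 5715 to 12841 CPM in CA1 and 75.6 to 1057 CPM in neurons, and 9 microglial genes to 279 to 563 CPM in CA1 and 1.32 to 18.2 CPM in neurons. Against these, 8 oligodendrocyte precursor genes summed to 366 to 483 CPM in CA1 and 621 to 3376 CPM in neurons, 11 progenitor and cell cycle genes summed to 86.3 to 113 CPM in CA1 and 233 to 960.4 CPM in neurons, and the 14 astrocyte genes overlapped between the systems at 7015 to 8797 CPM in CA1 and 5698 to 11060 CPM in neurons. In such bulk samples fewer cells of a type and less RNA per cell cannot be told apart.

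Brpf1, the gene the shRNA targets, was only modestly lower in shBrpf1 CA1, where it stood at 28.0, 37.3 and 28.5 CPM, against 40.4, 46.4 and 36.0 CPM in scramble CA1. These groups overlapped in 1 library, and the difference did not pass (log2 fold change -0.38, SE 0.18, unadjusted p = 0.0719, adjusted p = 0.934, edgeR quasi-likelihood test). In shBrpf1 neurons Brpf1 was at 27.1, 49.6 and 32.4 CPM, against 23.4, 52.8 and 38.5 CPM in scramble neurons, so that Brpf1 was lower with shBrpf1 in pairs 2 and 3 of the same-numbered libraries, higher in pair 1 against the label, and overlapped between the groups (log2 fold change -0.06, unadjusted p = 0.866). The gene's counts do not separate the neuron groups, and every direction given for them rests on the labels. The sense strand of the shRNA is shown because it defines the knockdown and can be matched to the 32 genes.
shBrpf1 sense strand, gene on chromosome 6: ggcttaccgctacttgaactt
These 21 bases matched a Brpf1 transcript with 0 mismatches. Over the 356 GENCODE M21 transcripts of the 32 genes, on either strand, the best match of each gene had 6 to 9 mismatches.

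Levels between genes were compared per length, as CPM per kb of the gene length in the tables. The order was led by the calmodulin and CaMKII genes. Nrgn, which encodes neurogranin, a postsynaptic protein that holds calmodulin when calcium is low, averaged 1199 ± 337 CPM per kb in shBrpf1 CA1, 1211 ± 220.5 in scramble CA1, 195 ± 63.6 in shBrpf1 neurons and 199.6 ± 114 in scramble neurons (SD, n = 3 each). Camk2a, the alpha subunit of CaMKII, averaged 928 ± 165, 943 ± 51.9, 288 ± 149 and 212 ± 9.32 CPM per kb in the same 4 groups. Nrgn was above Camk2a in each of the 6 CA1 libraries, while in neurons the mean of Camk2a was higher but the order changed between libraries, so it is not resolved there. Camk2b, the beta subunit, averaged 374 ± 38.7 CPM per kb in shBrpf1 CA1, 381 ± 22.5 in scramble CA1, 205 ± 78.2 in shBrpf1 neurons and 157 ± 31.0 in scramble neurons, so that in shBrpf1 neurons its mean was above that of Nrgn, within their SDs.

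Outside that role, Agap2 and Dlg4 had the highest levels per length. Agap2, a GTPase-activating protein for Arf proteins that also binds PI3 kinase, averaged 281 ± 52.8 CPM per kb in shBrpf1 CA1, 274 ± 19.4 in scramble CA1, 120.0 ± 50.7 in shBrpf1 neurons and 96.4 ± 13.9 in scramble neurons. Dlg4 led the PSD-95 family with 248 ± 46.0, 247 ± 20.3, 165 ± 44.6 and 155 ± 42.5 CPM per kb in these groups. Agap2 was above Dlg4 in each of the 6 CA1 libraries and below it in each of the 6 neuron libraries. Dlgap3, which led the SAPAP genes, averaged 103 ± 25.0 and 98.3 ± 15.8 CPM per kb in shBrpf1 and scramble CA1, and 57.9 ± 15.3 and 51.2 ± 10.8 in shBrpf1 and scramble neurons. Shank1, a scaffold of mature spines, had the highest mean of the SHANK and Homer genes, with 73.4 ± 10.8 and 61.2 ± 3.82 CPM per kb in shBrpf1 and scramble CA1 and 47.3 ± 17.0 and 35.5 ± 5.06 in shBrpf1 and scramble neurons, where Shank3 lay within the SDs at 39.7 ± 12.4 and 34.1 ± 3.76 and was above Shank1 in replicate 2 of both groups.

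In the adaptor and inhibitory roles the leading gene differed between the systems. Among the adaptors, Cnksr2, a scaffold of Ras and PSD-95 complexes, was highest per length in CA1, at 49.7 ± 14.2 CPM per kb in shBrpf1 CA1 and 32.4 ± 13.8 in scramble CA1. In scramble CA1 its SD overlapped that of Anks1b (28.8 ± 5.06), which was the higher of the pair in replicate 1. In neurons the highest in every library was Tnik, a kinase of the Wnt pathway found in the postsynaptic density, at 32.5 ± 8.05 CPM per kb in shBrpf1 neurons and 29.3 ± 9.07 in scramble neurons. Of the 2 inhibitory genes, Iqsec3, an Arf exchange factor that binds gephyrin, was ahead in CA1 at 35.7 ± 4.82 and 28.0 ± 5.94 CPM per kb in shBrpf1 and scramble CA1. Gphn, the gephyrin gene itself, was ahead in neurons at 27.4 ± 5.95 and 25.1 ± 5.91 CPM per kb in shBrpf1 and scramble neurons, and each of these orders held in all 6 libraries of its system. Lowest of the 32 in CA1 was Grip1, which encodes a PDZ protein that binds the AMPA receptor subunit GluA2, with 3.97 ± 0.655 and 3.03 ± 0.663 CPM per kb in shBrpf1 and scramble CA1, and its level was 8.49 ± 2.68 and 8.76 ± 2.91 in shBrpf1 and scramble neurons. The plot of all levels by library shows the spread behind each of these means.

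**Figure D1:**
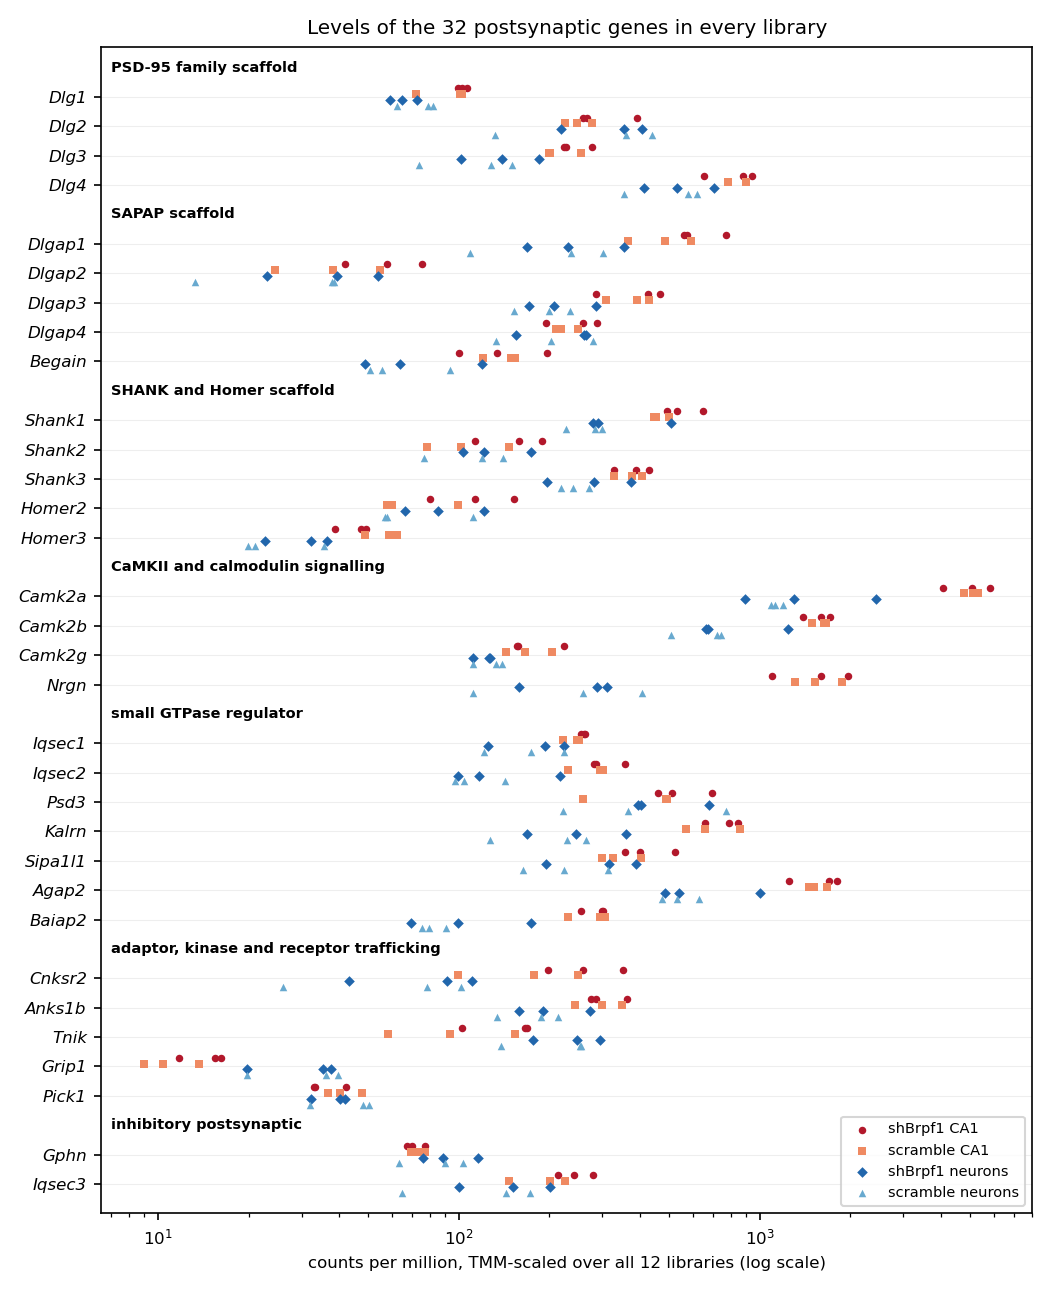
Level of each of the 32 genes in every library, in TMM-scaled CPM on a log axis, with genes grouped by role and 1 point per library. Camk2a lies between 4047 and 5803 CPM in CA1, above all neuron libraries, while Grip1 lies between 8.97 and 16.2 CPM in CA1, below all of them. CPM is not corrected for gene length, so levels compare across libraries and not between genes.

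Adult CA1 was set against cultured neurons to learn which postsynaptic genes differ between mature tissue and culture. Tissue, age, culture and cell makeup cannot be told apart in this design. In the scramble libraries 10 of the 32 genes were higher in CA1 at an adjusted p under 0.05 and 1 was lower, where 8.75% of all 16488 genes tested were higher and 12.9% lower (8.3% and 9.34% without chromosome 13). The median log2 fold change of the 32 genes was 0.61, against -0.08 over all genes tested, and 24 of the 32 lay above 0, against 46.0% of all genes. By role, 3 of 4 CaMKII and calmodulin genes passed as higher, as did 4 of 7 GTPase regulators, 2 of 5 SAPAP genes and 1 of 5 SHANK and Homer genes. No PSD-95 family gene and no inhibitory gene passed in either direction, and the only call among the 5 adaptors was 1 lower. The members were listed with earlier results of these data known, so these shares describe the list and test nothing about it.

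The 5 largest rises were those of Nrgn, Camk2a, Baiap2, Kalrn and Agap2. Nrgn stood at 1869, 1304 and 1524 CPM in scramble CA1, against 258, 111 and 405 CPM in scramble neurons. Every CA1 library was far above every neuron library (log2 fold change 2.58, SE 0.47, 95% interval 1.51 to 3.65, adjusted p = 0.00557, edgeR). Camk2a stood at 5306, 5094 and 4755 CPM in scramble CA1, against 1189.7, 1126 and 1091 CPM in scramble neurons. Both groups were tight and lay far apart (log2 fold change 2.13, SE 0.30, 95% interval 1.44 to 2.81, adjusted p = 0.00166, edgeR). Baiap2, which encodes IRSp53, a protein that couples Rac and Cdc42 to actin at the spine, was at 295, 307 and 230.0 CPM in scramble CA1, against 90.6, 79.4 and 75.2 CPM in scramble neurons. Its groups did not overlap either (log2 fold change 1.74, SE 0.24, 95% interval 1.20 to 2.28, adjusted p = 0.00145, edgeR).

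Kalrn, which encodes the spine protein kalirin, had 656, 861 and 567 CPM in scramble CA1, against 264, 127 and 229 CPM in scramble neurons, with every CA1 library higher (log2 fold change 1.73, SE 0.34, 95% interval 0.95 to 2.51, adjusted p = 0.00833, edgeR). Agap2 had 1665, 1516 and 1452 CPM in scramble CA1, against 627, 471 and 532 CPM in scramble neurons, again with no overlap (log2 fold change 1.48, SE 0.27, 95% interval 0.86 to 2.10, adjusted p = 0.00577, edgeR). The other 5 genes that rose were Camk2b, the X-linked Arf exchange factor gene Iqsec2, Homer3, Begain and Dlgap3, with log2 fold changes of 1.26, 1.24, 1.11, 1.06 and 0.92. Their adjusted p lay between 0.0101 and 0.0393 (edgeR), and Dlgap3 was the only one of the 10 under a log2 fold change of 1. A share of 25.4% of the exonic bases of Homer3 overlaps the gene Ddx49 on the other strand, and the strand setting of the counting is not stated, so its counts may include reads of that gene.

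Grip1 went the other way. It stood at 8.97, 13.7 and 10.4 CPM in scramble CA1, against 36.2, 19.8 and 39.7 CPM in scramble neurons, and every CA1 library was lower (log2 fold change -1.55, SE 0.31, 95% interval -2.27 to -0.83, adjusted p = 0.00931, edgeR). Tnik was at 58.1, 154 and 93.5 CPM in scramble CA1 and 252, 138 and 255 CPM in scramble neurons, where scramble CA1 replicate 2 lay inside the range of the neurons and the change did not pass (log2 fold change -1.10, adjusted p = 0.0852, edgeR). For Cnksr2, scramble CA1 replicate 1 was far below its fellows, at 99.2, 249 and 178 CPM in scramble CA1 and 102, 26.0 and 78.3 CPM in scramble neurons (log2 fold change 1.33, adjusted p = 0.103, edgeR). Among the scaffolds that did not pass, Dlg4 had 901, 784 and 784 CPM in scramble CA1 and 577, 354 and 616 CPM in scramble neurons, and Shank1 453, 498 and 444 CPM in scramble CA1 and 284, 226 and 299 CPM in scramble neurons. Both sat higher in every CA1 library, with log2 fold changes of 0.65 and 0.76 and adjusted p of 0.152 and 0.0533 (edgeR). Across the list, 17 genes were higher and 1 lower with no overlap between the groups, against 19.4% and 21.9% of all genes (20.0% and 19.3% without chromosome 13).

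The inhibitory pair showed no such separation in the scramble libraries. Gphn had 69.5, 77.1 and 73.6 CPM in scramble CA1 and 103, 63.4 and 90.1 CPM in scramble neurons, with an interval of its log2 fold change of -0.77 to 0.28. Iqsec3 had 147, 202 and 226 CPM in scramble CA1 and 173, 64.9 and 143 CPM in scramble neurons, with an interval of -0.26 to 1.40. Both groups of libraries overlapped for both genes. A rise the size of that in Homer3 lies inside the interval of Iqsec3 and outside that of Gphn. In the shBrpf1 libraries, Iqsec3 was higher in every CA1 library than in every neuron library but did not pass (log2 fold change 0.70, 95% interval 0.04 to 1.35, adjusted p = 0.123, edgeR). Gphn overlapped there too, with an interval of -0.86 to 0.09.

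A further 8 genes had no call in any main fit and are given here by range. They were Dlg2 and Dlg3, the scaffolds PSD-93 and SAP102, Dlgap4, Shank3, Camk2g, the gamma subunit of CaMKII, Psd3, an Arf6 exchange factor, Anks1b, which encodes the PSD-95 partner AIDA-1, and Pick1, whose product binds AMPA receptor subunits. Shank3 and Anks1b are also named above for their levels, and Dlg3 below for the fit with the replicate block. Log2 fold changes of the 8 genes, CA1 over neurons, ran from -0.09 in Dlg2 to 0.77 in Dlg3 in the shBrpf1 libraries and from -0.33 in Dlg2 to 0.88 in Dlg3 in the scramble libraries. Under knockdown they ran from -0.19 in Pick1 to 0.43 in Psd3 in CA1 and from -0.18 in Pick1 to 0.28 in Dlg3 in neurons.

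The same contrast in the shBrpf1 libraries, which shares no library with the scramble one, called 9 of the 32 genes higher in CA1 and 1 lower, where 9.7% of all 16521 genes were higher and 12.4% lower (9.49% and 8.79% without chromosome 13). The median of the 32 genes was 0.59, against -0.05 over all genes, and 27 lay above 0, against 46.7% of all genes. Nrgn was again first, with 1594, 1093 and 1963 CPM in shBrpf1 CA1, against 287, 158 and 311 CPM in shBrpf1 neurons, and no overlap (log2 fold change 2.62, SE 0.37, adjusted p = 0.00202, edgeR). Agap2, Baiap2, Camk2a, Iqsec2 and Kalrn were called higher here too, so that 6 genes were called in both, which is 66.7% of the shBrpf1 calls and 60% of the scramble calls. Cnksr2, Dlg1 and Dlgap1 passed in the shBrpf1 libraries alone and Begain, Camk2b, Dlgap3 and Homer3 in the scramble libraries alone, but the test of the difference between the contrasts called none of the 32 genes. For 29 of the 32 the sign was the same in both.

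Camk2a in the shBrpf1 libraries stood at 5803, 4047 and 5068 CPM in CA1, against 2434, 1303 and 894 CPM in neurons, where neuron replicate 1 was highest (log2 fold change 1.69, adjusted p = 0.0244, edgeR). Cnksr2 stood at 351, 258 and 198 CPM in shBrpf1 CA1, against 110.1, 43.1 and 91.5 CPM in shBrpf1 neurons, with every CA1 library higher (log2 fold change 1.72, adjusted p = 0.0148, edgeR). Dlgap1 had a log2 fold change of 1.34 (adjusted p = 0.0210, edgeR), and Dlg1, the gene of SAP97 and the only PSD-95 family gene called in either contrast, one of 0.65 (adjusted p = 0.0309, edgeR). Grip1 was lower again, at 16.2, 15.4 and 11.7 CPM in shBrpf1 CA1, against 35.4, 19.7 and 37.6 CPM in shBrpf1 neurons (log2 fold change -1.09, adjusted p = 0.0273, edgeR). In these libraries 16 genes were higher and 2 lower with no overlap, against 19.7% and 21.9% of all genes (20.3% and 19.3% without chromosome 13).

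**Figure D2:**
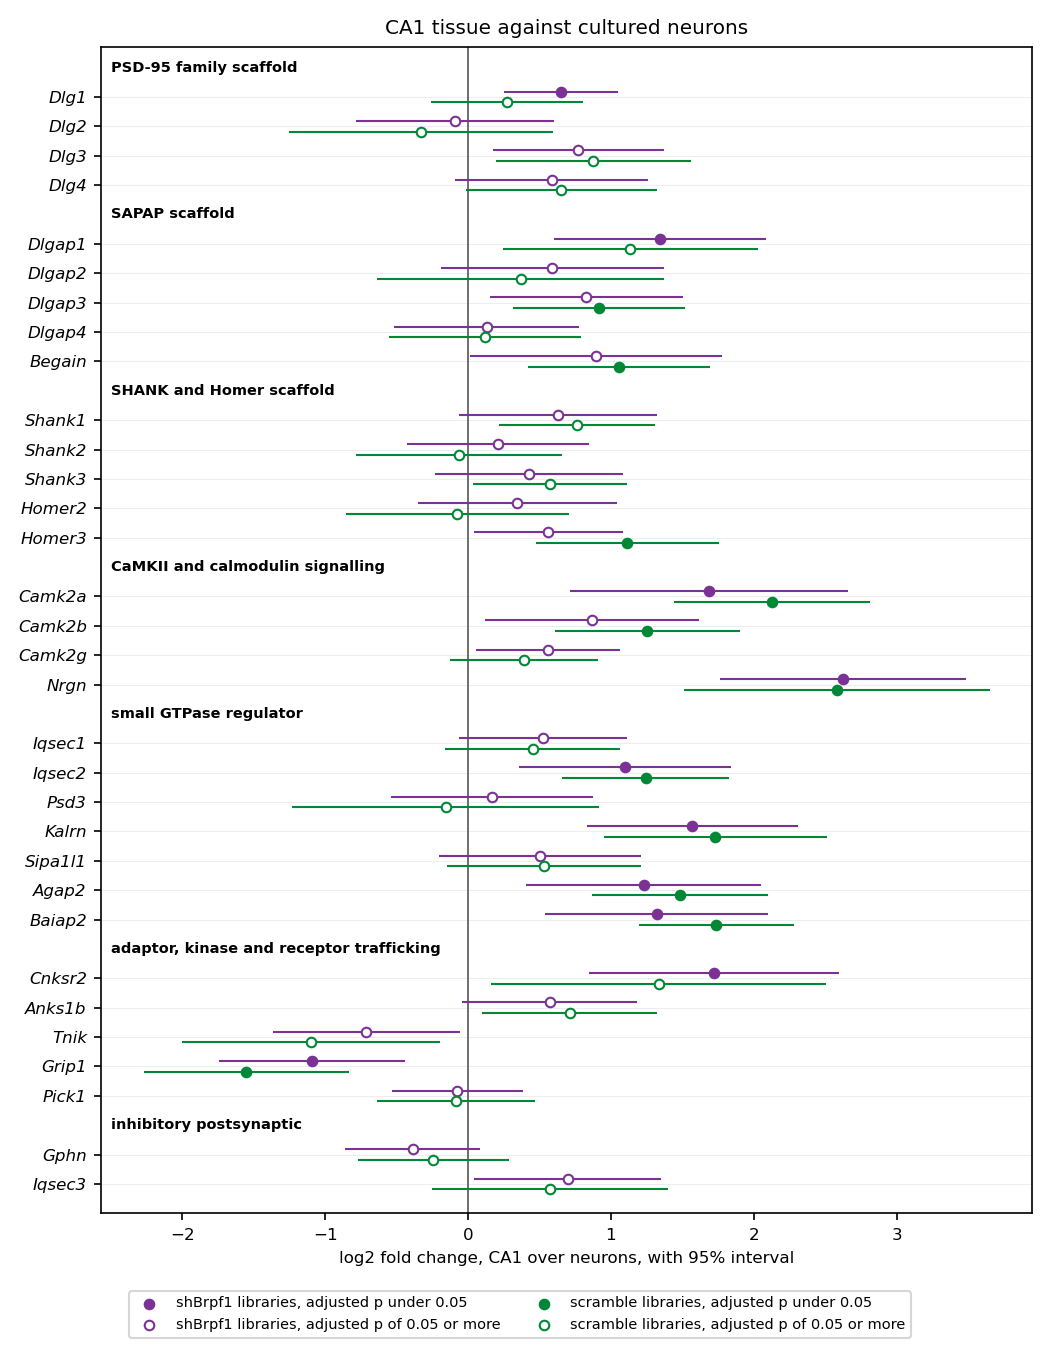
Log2 fold change of CA1 over neurons for each of the 32 genes, with its 95% interval, in the shBrpf1 libraries (upper point of each gene) and the scramble libraries (lower point). Filled points have an adjusted p under 0.05. Nrgn lies farthest to the right in both, at 2.62 and 2.58, and Grip1 farthest to the left, at -1.09 and -1.55.

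These calls depended on the scale and on single libraries. The summed level of the 32 genes was 15083 to 19900 CPM in shBrpf1 CA1 and 16128 to 17247 CPM in scramble CA1, against 6629 to 11729 CPM in shBrpf1 neurons and 5380 to 8371 CPM in scramble neurons. Divided by the summed level of the 18 pan-neuronal genes, it came to 1.87 to 2.21 in shBrpf1 CA1 and 1.57 to 2.17 in scramble CA1, against 0.873 to 1.24 in shBrpf1 neurons and 0.905 to 1.44 in scramble neurons, and every CA1 library was above every neuron library on this scale as well. Such sums are led by few genes. The 4 CaMKII and calmodulin genes averaged 8385 of 16778 CPM in scramble CA1 and 2180 of 7190 CPM in scramble neurons. Summed CPM of the adaptor genes and of the inhibitory genes overlapped between CA1 and neurons in both contrasts. Setting library sizes by the pan-neuronal genes moved the median of all genes by over 0.1, to -0.28 in shBrpf1 and -0.51 in scramble libraries. The median of the 32 genes was then 0.41 in the shBrpf1 libraries, with 7 called higher, against 5.47% of all genes. In the scramble libraries it was 0.38, with 4 called higher, against 3.92% of all genes. Baiap2, Camk2a, Kalrn and Nrgn kept an adjusted p under 0.05 in the scramble contrast whichever single library was left out, as did Agap2 and Iqsec2, whereas Dlgap3 lost it every time. In the shBrpf1 contrast only Nrgn and Kalrn kept it throughout. The count of the 32 genes called higher there was 14 without shBrpf1 neurons replicate 1, against 9.99% of all genes. It was 2 to 5 without any other single library, against 3.82 to 9.32% of all genes. The scramble count was 6 without scramble CA1 replicate 1 and also 6 without replicate 3, against 4.15% and 3.75% of all genes. The lower call of Grip1 was lost without either of those libraries in the scramble contrast, and in the shBrpf1 contrast it held only without shBrpf1 neurons replicate 2.

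Promoters are shown for 3 of the genes that were higher in CA1 in both contrasts and for the gene that was lower, so that their sequence can be seen beside these values. RefSeq (GRCm38.p6) promoter windows, 250 bases before to 50 after a start, were found for 25 of the 32 genes, with 50 starts in all. Capitals mark the GC box GGGCGG or its reverse complement CCGCCC, on either strand. The CRE half-site TGACG, searched on both strands, occurs in none of these 4 windows.
Nrgn, chr9:37552696-37552995, minus strand: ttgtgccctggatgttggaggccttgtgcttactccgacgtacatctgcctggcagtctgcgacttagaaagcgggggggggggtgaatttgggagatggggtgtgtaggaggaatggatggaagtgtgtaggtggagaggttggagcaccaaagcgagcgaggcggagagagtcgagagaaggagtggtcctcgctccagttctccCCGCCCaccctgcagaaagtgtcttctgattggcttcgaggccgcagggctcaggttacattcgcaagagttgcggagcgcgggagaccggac
Baiap2, chr11:119942842-119943141, plus strand: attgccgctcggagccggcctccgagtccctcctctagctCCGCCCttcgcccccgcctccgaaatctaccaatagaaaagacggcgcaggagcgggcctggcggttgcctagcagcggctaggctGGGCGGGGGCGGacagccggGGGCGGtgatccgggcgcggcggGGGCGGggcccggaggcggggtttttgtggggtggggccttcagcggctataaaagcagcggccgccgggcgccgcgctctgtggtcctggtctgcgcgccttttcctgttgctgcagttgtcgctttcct
Agap2, chr10:127078657-127078956, plus strand: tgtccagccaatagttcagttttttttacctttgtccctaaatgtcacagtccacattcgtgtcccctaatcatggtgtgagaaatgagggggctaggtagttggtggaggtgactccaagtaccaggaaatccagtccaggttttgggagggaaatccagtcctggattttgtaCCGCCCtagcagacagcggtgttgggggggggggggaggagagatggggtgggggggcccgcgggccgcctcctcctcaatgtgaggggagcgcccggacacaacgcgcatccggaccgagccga
Grip1, chr10:119453784-119454083, plus strand: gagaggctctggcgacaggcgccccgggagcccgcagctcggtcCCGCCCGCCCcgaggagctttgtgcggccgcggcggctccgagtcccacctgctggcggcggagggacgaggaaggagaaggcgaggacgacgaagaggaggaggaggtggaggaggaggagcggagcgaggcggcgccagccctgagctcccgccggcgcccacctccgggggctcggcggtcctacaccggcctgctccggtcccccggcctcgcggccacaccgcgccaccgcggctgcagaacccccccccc
Nrgn and Agap2 each have 1 start in the table and 1 GC box, Baiap2 has 1 start and 5 GC boxes, and the Grip1 window, the first of its 3, has 2 that overlap. Over all 50 windows, with both strands read, a GC box was present in 60.0%, against 35.7% of 32851 promoters, TGACG in 18.0% against 20.8%, and the full CRE TGACGTCA, which contains TGACG, in 0% against 1.79%. The windows of the 32 genes held a median of 16.5 CpG and 62.7% GC, against 7 CpG and 52.7% GC over all promoters. The gene that was lower in CA1 has the highest GC content of the 4 windows shown, 77.3%.

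Library by library, the 32 genes moved together in the neurons. In replicate 2 of both neuron groups 29 of the 32 lay below their group mean, with a median departure of -0.34 on the log2 scale in shBrpf1 neurons and -0.44 in scramble neurons. In replicate 1, 30 genes lay above the mean in shBrpf1 neurons and 28 in scramble neurons, with medians of 0.43 and 0.23. The summed pan-neuronal level was also lowest in replicate 2 of each neuron group (5346 CPM in shBrpf1 and 3730 CPM in scramble neurons). In scramble neurons it was higher in replicate 3 (8638 CPM) than in replicate 1 (7954 CPM). The 14 astrocyte genes summed, in replicates 1 to 3, to 5698, 9054 and 9535 CPM in shBrpf1 neurons and to 8924, 11060 and 9545 CPM in scramble neurons. Their part in the result was not tested. In CA1 the departures were smaller, with medians between -0.12 and 0.17.

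**Figure D3:**
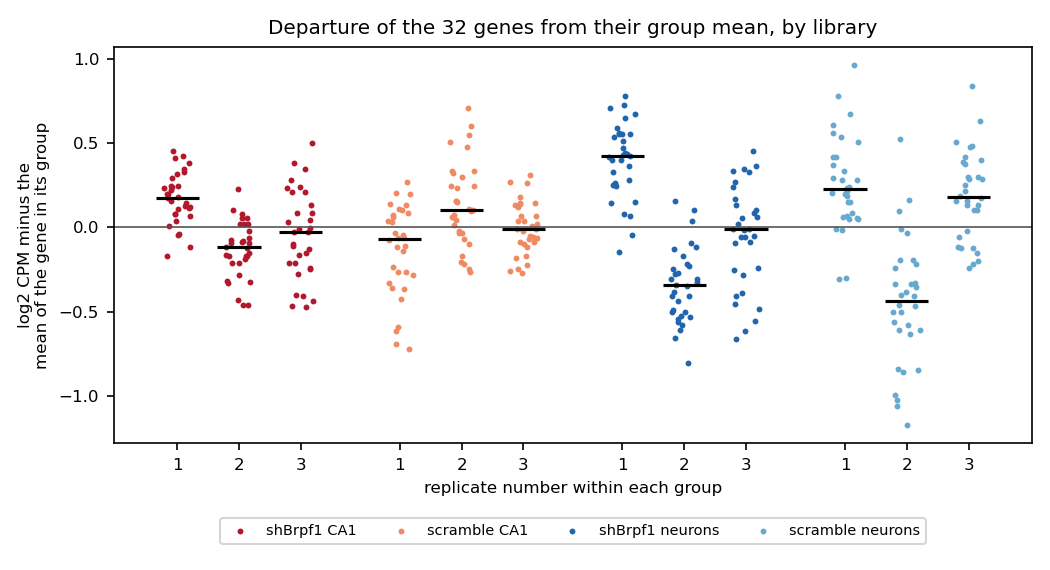
Departure of each of the 32 genes from its group mean on the log2 CPM scale, by library, with 1 point per gene and a black bar at the median. Replicate 2 of both neuron groups lies below 0, with medians of -0.34 (shBrpf1) and -0.44 (scramble), and replicate 1 lies above it.

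In cultured neurons the test called none of the 32 genes between the libraries labelled shBrpf1 and those labelled scramble. No gene passed an adjusted p of 0.05 in either direction (0.0% of all 16066 genes did), and none passed the study's threshold of a log2 fold change of 1 in size with an unadjusted p under 0.05, which 0.0498% of all genes passed as higher and 0.00622% as lower. These fits did not use the pairing of the neuron libraries by replicate number, which is taken up below. In them none had an unadjusted p under 0.05 with edgeR (0.056% of all genes did as higher and 0.0187% as lower), DESeq2 or limma-voom, and 1 did without shBrpf1 neurons replicate 3. Fold changes ranged from -0.18 to 0.49 on the log2 scale, with a median of 0.23, against -0.01 over all genes, and 27 of 32 were above 0, against 48.6% of all genes. By role the medians were 0.09 for the PSD-95 family, 0.22 for SAPAP genes, 0.26 for SHANK and Homer genes, 0.18 for CaMKII and calmodulin genes, 0.32 for GTPase regulators, 0.15 for adaptors and 0.19 for the inhibitory genes. The 18 pan-neuronal genes had a median of 0.21, with 16 above 0, and the 14 astrocyte genes one of -0.27, with 13 below 0. Oligodendrocyte precursor genes had a median of -0.39, with 7 of 8 below 0, GABAergic interneuron genes one of -0.34, with 9 of 10 below 0, and progenitor and cell cycle genes one of -0.27, with 12 of 12 below 0. Their part in the result was not tested. With library sizes set by the pan-neuronal genes the median of the 32 turned to -0.12, with 6 above 0, beside a median of -0.40 over all genes.

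In each of the 5 genes with the lowest p in the unpaired fit, the library labelled shBrpf1 neurons replicate 1 was the highest of the 6. In that library Brpf1 was at 27.1 CPM, above scramble neurons replicate 1 (23.4 CPM) but below scramble neurons replicates 2 and 3 (52.8 and 38.5 CPM). Baiap2 was at 173, 99.5 and 69.1 CPM in shBrpf1 neurons, against 90.6, 79.4 and 75.2 CPM in scramble neurons. That library stood far above the rest, and shBrpf1 replicate 3 was the lowest (log2 fold change 0.49, 95% interval -0.35 to 1.33, unadjusted p = 0.210, adjusted p = 1.00, edgeR). Shank1 was at 508, 279.9 and 290.3 CPM in shBrpf1 neurons, against 284, 226 and 299 CPM in scramble neurons, where the other 2 shBrpf1 libraries lay within the scramble range (log2 fold change 0.42, 95% interval -0.32 to 1.17, unadjusted p = 0.219). Camk2a was at 2434, 1303 and 894 CPM in shBrpf1 neurons, against 1189.7, 1126 and 1091 CPM in scramble neurons, so that the shBrpf1 libraries spread on both sides of scramble libraries that hardly differed (log2 fold change 0.45, 95% interval -0.53 to 1.44, unadjusted p = 0.312).

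Camk2b was at 1237, 665 and 675 CPM in shBrpf1 neurons, against 743, 509 and 723 CPM in scramble neurons (log2 fold change 0.39, unadjusted p = 0.303). Sipa1l1, the gene of the Rap GTPase-activating protein SPAR, was at 388, 195 and 316 CPM in shBrpf1 neurons, against 223, 163 and 314 CPM in scramble neurons (log2 fold change 0.37, unadjusted p = 0.331). For both, the shBrpf1 libraries reached higher but the groups overlapped, as they did for all 32 genes, where 0.622% of all genes were higher and 0.983% lower with no overlap. The intervals reach 1.33 in Baiap2 and 1.44 in Camk2a on the log2 scale. The median of the 32 genes lay between -0.04, without the library labelled shBrpf1 neurons replicate 1, and 0.40, without scramble neurons replicate 1, and it was 0.03 without scramble neurons replicate 2, so it rested on these libraries.

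Replicate numbers paired the neuron libraries, and within pairs the picture was uneven. The median log2 ratio of shBrpf1 to scramble neurons over the 32 genes was 0.33 in pair 1, with 25 genes higher, 0.26 in pair 2, with 28 higher, and -0.03 in pair 3, with 13 higher. In all 3 pairs 9 of the 32 genes were higher (28.1%, against 14.1% of all genes) and 2 were lower (6.25%, against 14.5%). With the replicate block in the fit, 5 genes reached an unadjusted p under 0.05 as higher, where 3.14% of all genes did, and none lower, where 1.76% did. They were Cnksr2, Dlg3, Dlgap2, Homer2 and Kalrn. None passed an adjusted p of 0.05, and the median was 0.26. The SE of each of the 32 genes was smaller with the block than without it, as in Baiap2 (0.20 against 0.35) and Dlg3 (0.11 against 0.34).

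In CA1, too, the test called none of the 32 genes. None passed an adjusted p of 0.05 (0.0% of all 16022 genes did) or the study's threshold, which 0.331% of all genes passed as higher and 0.137% as lower, and none had an unadjusted p under 0.05 with edgeR or limma-voom, against 0.687% higher and 0.462% lower of all genes with edgeR, while DESeq2 gave 1. Fold changes ranged from -0.32 to 0.69 on the log2 scale, with a median of 0.14 against 0.01 over all genes, and 26 of 32 were above 0, against 50.8% of all genes. Medians by role were 0.16 for the PSD-95 family, 0.14 for SAPAP genes, 0.27 for SHANK and Homer genes, -0.01 for CaMKII and calmodulin genes, 0.15 for GTPase regulators, 0.40 for adaptors and 0.17 for the inhibitory genes. The 12 oligodendrocyte genes were all below 0, with a median of -0.35 and summed levels of 5715 to 10412 CPM in shBrpf1 CA1 and 9229 to 12841 CPM in scramble CA1. The CA2 and CA3 pyramidal genes were below 0 in 8 of 8, with a median of -0.39, the CA1 pyramidal genes above 0 in 8 of 9, with a median of 0.27, and the 18 pan-neuronal genes had a median of -0.03. The part of these cell types in the result was not tested.

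**Figure D4:**
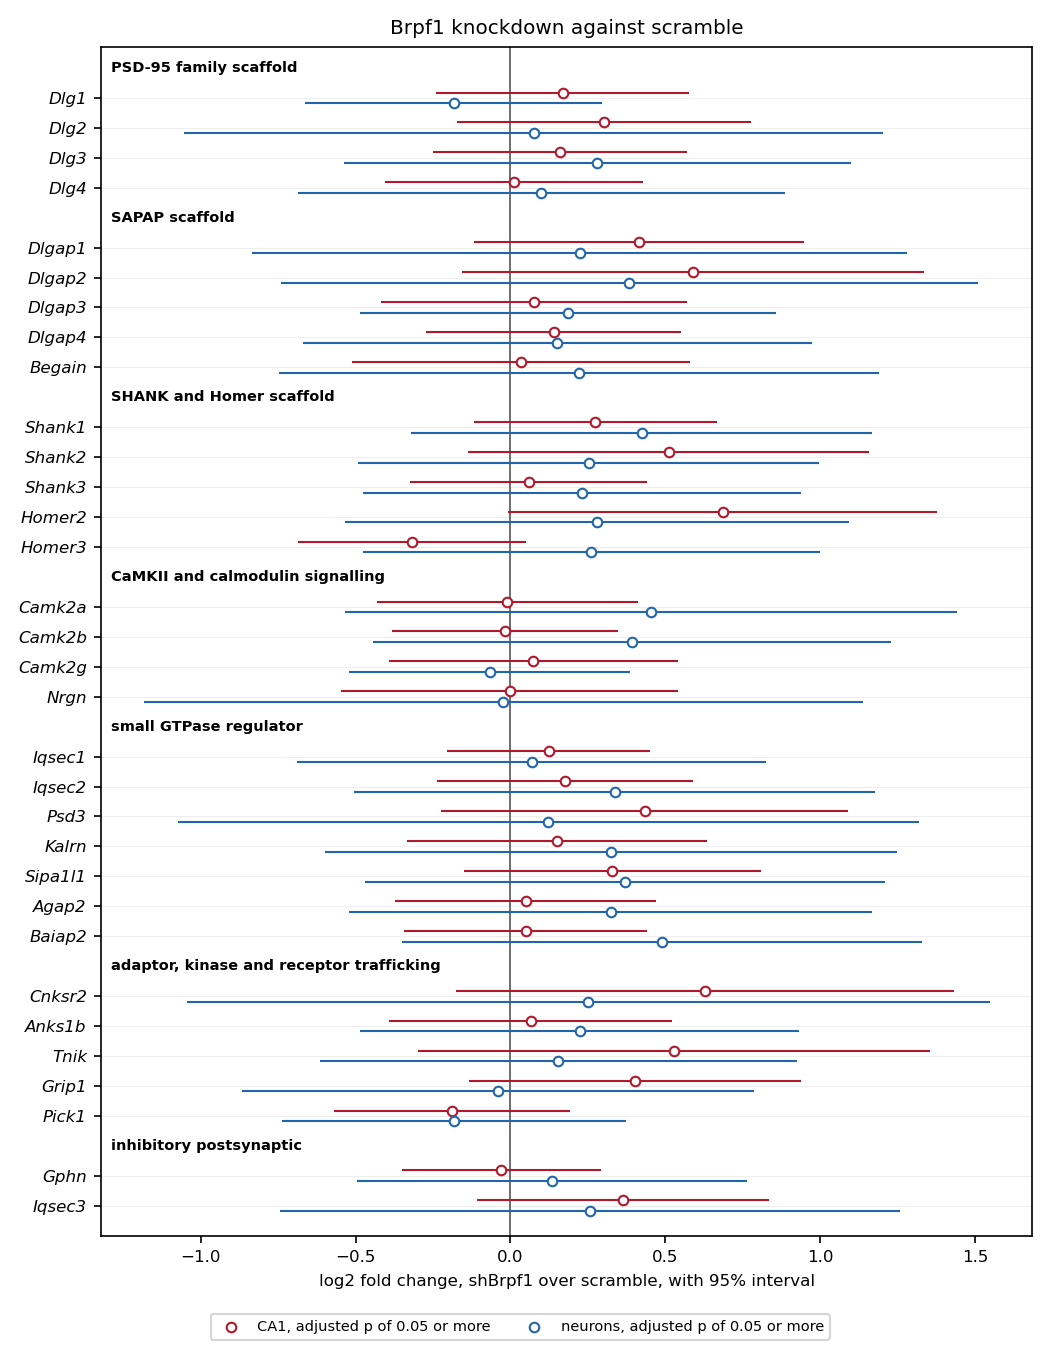
Log2 fold change of shBrpf1 over scramble for each of the 32 genes, with its 95% interval, in CA1 (upper point) and in neurons (lower point). The intervals are from the fits without the replicate block. Every interval includes 0, and the intervals are wider in neurons for most genes. With the block, 5 genes in neurons had an unadjusted p under 0.05 as higher (edgeR), where 3.14% of all genes did. In CA1, not taken as paired by number, 1 had, and the share of all genes was not counted.

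The lowest p belonged to Homer2, which encodes an adaptor between metabotropic glutamate receptors and SHANK. It stood at 153, 113 and 80.4 CPM in shBrpf1 CA1, against 57.5, 99.6 and 59.8 CPM in scramble CA1, with both groups widely spread and scramble replicate 2 inside the shBrpf1 range (log2 fold change 0.69, SE 0.30, 95% interval -0.01 to 1.38, unadjusted p = 0.0519, adjusted p = 0.934, edgeR). Its relative Homer3 was lower in tendency, at 49.0, 38.6 and 47.5 CPM in shBrpf1 CA1, against 58.8, 48.7 and 62.3 CPM in scramble CA1, with 1 pair of libraries overlapping (log2 fold change -0.32, SE 0.16, unadjusted p = 0.0824). For Dlgap2, scramble replicate 1 was the lowest library, at 75.6, 57.6 and 41.8 CPM in shBrpf1 CA1 and 24.5, 54.5 and 38.1 CPM in scramble CA1 (log2 fold change 0.59, unadjusted p = 0.107).

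Shank2 and Cnksr2 had the same shape. Shank2 was at 189, 159 and 114 CPM in shBrpf1 CA1, against 78.2, 147 and 101 CPM in scramble CA1 (log2 fold change 0.51, unadjusted p = 0.107). Cnksr2 was at 351, 258 and 198 CPM in shBrpf1 CA1, against 99.2, 249 and 178 CPM in scramble CA1 (log2 fold change 0.63, SE 0.35, unadjusted p = 0.110). In both genes scramble replicate 1 was lowest and shBrpf1 replicate 1 highest, and the adjusted p of all 5 genes was 0.934. Iqsec1 was the only gene with no overlap between the groups (log2 fold change 0.12, unadjusted p = 0.414), where 2.66% of all genes were higher and 2.69% lower in that way. The CaMKII and calmodulin genes had the role median nearest to 0. Camk2a was at 5803, 4047 and 5068 CPM in shBrpf1 CA1 and 5306, 5094 and 4755 CPM in scramble CA1, and the interval of its log2 fold change was -0.43 to 0.41. For Nrgn, at 1594, 1093 and 1963 CPM in shBrpf1 CA1 and 1869, 1304 and 1524 CPM in scramble CA1, it was -0.55 to 0.54.

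Single libraries moved this comparison as well. Without scramble CA1 replicate 2, 7 of the 32 genes had an unadjusted p under 0.05, all higher, and 1 passed the study's threshold. Without shBrpf1 CA1 replicate 3 the number was 3, and without any of the other 4 libraries it was 0. The share of all genes at an unadjusted p under 0.05 was not counted in these fits. The numbers therefore cannot say whether the 32 genes differ from other genes in these fits. Of all genes tested, 0 passed an adjusted p of 0.05 in either direction without scramble CA1 replicate 2 or without shBrpf1 CA1 replicate 3. The median of the 32 genes lay between 0.06, without shBrpf1 CA1 replicate 1, and 0.23, without scramble CA1 replicate 2, and it was 0.05 without both libraries numbered 1. Between libraries of the same number the median log2 ratio was 0.31, -0.08 and 0.16, with 25, 12 and 26 genes higher, and 9 genes were higher in all 3 (28.1%, against 12.3% of all genes) and 1 was lower (3.12%, against 14.0%). With the replicate block in the fit, Homer2 had an unadjusted p of 0.0444 (adjusted p = 0.857, edgeR). The share of all genes at an unadjusted p under 0.05 was not counted in that fit either.

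Fold changes in CA1 moved with gene length, over the 32 genes and over all genes. The Spearman correlation of log2 fold change with length was 0.63 over the 32 genes and 0.50 over 16022 genes, given as a description because all points share the same 6 libraries. Of 10 bins of equal size by length, the shortest had a median log2 fold change of -0.25 and the longest, genes of 6102 bases or more, one of 0.28, and 14 of the 32 genes belong to that longest bin. Between 3687.5 and 7401 bases, the range of the middle of the 32 genes, 16 of them had a median of 0.15 and all 4275 genes one of 0.14. Homer2 is among the longest, with 11149 bases, and Homer3 among the shortest, with 2445 bases. In neurons the correlation was 0.22 over the 32 genes and 0.13 over all 16066 genes, and in the same length range the 16 genes had a median of 0.25 and all 4388 genes one of 0.02. Length also ordered the genes within groups: the correlation of a library's departures with length over all genes was -0.52 in scramble CA1 replicate 1 and 0.53 in replicate 2, and -0.45 in shBrpf1 CA1 replicate 3, with 0.28 and 0.27 in the other 2 shBrpf1 CA1 libraries. The part of length in the result was not tested.

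**Figure D5:**
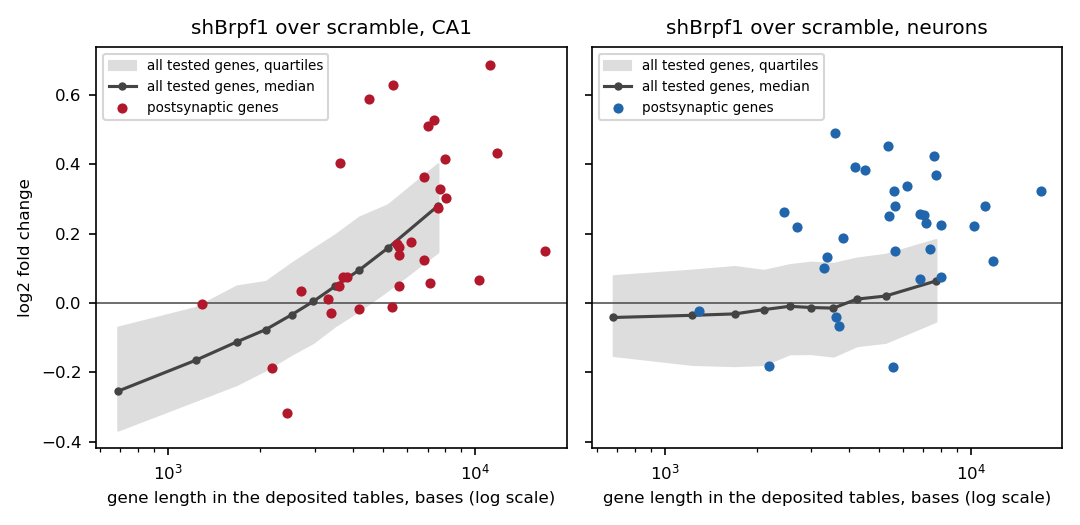
Log2 fold change of shBrpf1 over scramble against gene length on a log axis, for CA1 and neurons. Coloured points are the 32 genes, the line is the median over all tested genes in 10 bins of length and the band their quartiles. In CA1 the line climbs from -0.25 in the shortest to 0.28 in the longest bin and the points scatter about it, and in neurons the line stays between -0.04 and 0.06 with most points above it.

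The difference between the knockdown effects, CA1 minus neurons, was tested in a fit of all 12 libraries and called none of the 32 genes, with 0 at an unadjusted p under 0.05 by edgeR, where 0.238% of all 17254 genes were higher and 0.0985% lower. The median difference was -0.03 on the log2 scale, against 0.02 over all genes, and 14 of the 32 were above 0, against 51.8% of all genes. It ranged from -0.58 in Homer3 (95% interval -1.36 to 0.19, unadjusted p = 0.127) to 0.44 in Grip1 (95% interval -0.52 to 1.39, unadjusted p = 0.338). Grip1 was higher in all 3 same-numbered pairs in CA1 and lower in all 3 in neurons, with 16.2, 15.4 and 11.7 CPM in shBrpf1 CA1 and 8.97, 13.7 and 10.4 CPM in scramble CA1, and 35.4, 19.7 and 37.6 CPM in shBrpf1 neurons and 36.2, 19.8 and 39.7 CPM in scramble neurons. The log2 ratios in neurons were small, at -0.029, -0.0085 and -0.080, and CA1 was not taken as paired by number. Both groups of each system overlapped. For Camk2a the difference was -0.47 (95% interval -1.50 to 0.57), and for Nrgn 0.02 (95% interval -1.30 to 1.34).

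Other genes of the same compartment, from 2 further lists of postsynaptic genes, were counted in the same way. Of 28 other genes of the postsynaptic density and spine that do not lie on chromosome 13, 8 were higher and 3 lower in CA1 than in neurons in the shBrpf1 libraries (median 0.64), and 8 were higher and 1 lower in the scramble libraries (median 0.62). Camk2n1, whose product inhibits CaMKII, was at 752, 579 and 958 CPM in shBrpf1 CA1, against 169.9, 125 and 142 CPM in shBrpf1 neurons (log2 fold change 2.39, adjusted p = 0.000773, edgeR), and at 831, 671 and 997 CPM in scramble CA1, against 201, 120.0 and 167 CPM in scramble neurons (log2 fold change 2.33, adjusted p = 0.00108, edgeR). The inhibitor thus stood beside Camk2a among the genes with no overlap. Dgkz, a diacylglycerol kinase bound to PSD-95, was at 663, 574 and 581 CPM in scramble CA1, against 176, 123 and 143 CPM in scramble neurons (log2 fold change 2.02, adjusted p = 0.000976, edgeR). Ppp3ca, a catalytic subunit of calcineurin, had log2 fold changes of 1.89 in the shBrpf1 and 2.13 in the scramble libraries (adjusted p = 0.00956 and 0.00187, edgeR), and Git1, a scaffold of the Rac pathway, one of 1.76 in the shBrpf1 libraries (adjusted p = 0.00366, edgeR). Of 9 other inhibitory postsynaptic genes, none was higher and 1 was lower in each contrast, with medians of -0.19 in the shBrpf1 and 0.17 in the scramble libraries.

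Under knockdown none of these genes passed an adjusted p of 0.05. In CA1, 23 of the 28 other density genes lay above 0, with a median of 0.17, and in neurons 27 of 30, with a median of 0.20. Magi2, a PDZ scaffold of the density, was at 157, 124 and 119 CPM in shBrpf1 CA1, against 74.6, 108 and 106 CPM in scramble CA1, with no overlap (log2 fold change 0.48, unadjusted p = 0.0473, adjusted p = 0.934, edgeR). Lin7b and Lrrc7, which encodes densin-180, followed with -0.37 and 0.88 and unadjusted p of 0.0779 and 0.0829. In neurons Mdga1, which encodes a membrane protein that blocks neuroligin 2, was at 231, 74.0 and 67.0 CPM in shBrpf1 neurons, against 56.6, 46.2 and 55.2 CPM in scramble neurons. Every shBrpf1 library was higher, most of all replicate 1, and the gene passed the study's threshold but not the adjusted one (log2 fold change 1.25, SE 0.50, unadjusted p = 0.0420, adjusted p = 1.00, edgeR). Prkce and Synpo, the gene of synaptopodin, followed with 0.55 and 0.41 and unadjusted p of 0.213 and 0.236.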

How the data were processed

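mRNA-Seq was performed on 12 libraries, 3 in each of 4 groups taken from the sample labels. Per the study's methods, adapters and low-quality reads were removed, reads were aligned with STAR to a release-98 mouse reference, and reads per gene were derived with StringTie; the submitters' processing notes name mm9, FastQC, StringTie and DESeq2. How strand and multiply mapped reads were handled is not given in the sources used here. The authors deposited raw counts per gene, 1 table per library with 27179 gene IDs and gene lengths. Of these IDs, 25275 were named from RefSeq (GRCm38.p6), and the 1904 others took 2.46% of counts and stayed in the fits. No author comparison columns were used.

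Counts were tested with the quasi-likelihood test of edgeR 4.0.16 in R 4.3.3 (TMM factors, robust fit), over genes that reached 10 counts in 3 or more of the fitted libraries, with Benjamini-Hochberg adjustment over all of them. Each knockdown comparison used its own 6 libraries, CA1 was set against neurons within the scramble and within the shBrpf1 libraries, and the difference of the knockdown effects used all 12. Levels are CPM with TMM factors over the 12 libraries. Intervals are 95% intervals from the fit. Alternatives were DESeq2 1.42.0, limma-voom (limma 3.58.1), other size factors, other filters, a replicate block, library sizes set by 18 pan-neuronal genes, a joint fit and leaving out libraries. The fits were tested on simulated data. Tables and figures were made with pandas 2.3.3 and matplotlib 3.10.9.

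Deviations from group means of same-numbered neuron libraries correlated at 0.585, 0.887 and 0.848, all above 0.1, so these numbers were taken to pair the neuron libraries. In CA1 the correlations were -0.355, 0.195 and 0.346. The study speaks of 3 pairs in both systems, but no source says which libraries form the pairs, so CA1 was not taken as paired by number and its fit with the block is given as an alternative.

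The 32 genes and all lists were chosen with earlier results of these data known. Values per library were given for the 5 genes with the lowest p in each knockdown comparison, the 5 largest rises and up to 3 largest falls among called genes between scramble CA1 and scramble neurons, and the gene with the highest level per length in each role. From the other postsynaptic lists up to 3 genes with the lowest p in a comparison were named. All other genes of the 32 that are named singly, among them Iqsec1, Iqsec2, Dlg1 and Dlgap1, were named after their values were seen. Replicate libraries of each group differed by more than sampling noise. The genes Dbn1 and Actn2 of the other postsynaptic lists lie on chromosome 13 and have no CA1 value.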

Additional observations from a re-analysis of the deposited data

How the results depend on the processing

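No gene called between CA1 and neurons in the main fits changed direction under any alternative. Under knockdown no gene was called, so a change of direction past a threshold could not occur there. In both knockdown comparisons and in their difference, 0 genes had an adjusted p under 0.05 in all alternatives run. The count past a log2 fold change of 1 at an unadjusted p under 0.05 was 0 to 1 in CA1 when single libraries were left out, and 0 in neurons. With library sizes set by the pan-neuronal genes the median in neurons changed sign, from 0.23 to -0.12. Leaving out single libraries gave medians from -0.04 to 0.40 in neurons, 0.06 to 0.23 in CA1 and -0.23 to 0.16 for their difference.

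Between CA1 and neurons in the shBrpf1 libraries, 4 genes were higher and 0 lower without the libraries numbered 1, an alternative chosen after seeing the data, 0 were lower with library sizes set by the pan-neuronal genes, and leaving out single libraries gave 2 to 14 higher and 0 to 1 lower. In the scramble libraries, 16 genes were higher and 2 lower with the DESeq2 Wald test, 4 and 2 with library sizes set by the pan-neuronal genes, and 2 and 0 without the libraries numbered 1, and leaving out single libraries gave 6 to 8 higher and 0 to 2 lower. Without chromosome 13 the counts of called genes did not move, also chosen after seeing the data. The shares of all genes called moved with the setting as well. Without the libraries numbered 1, 3.27% were higher and 3.16% lower in the shBrpf1 libraries, and 3.10% and 4.08% in the scramble libraries. With the DESeq2 Wald test the scramble shares were 11.7% and 15.8%. Leaving out single libraries gave 3.82 to 9.99% higher in the shBrpf1 and 3.75 to 9.82% in the scramble libraries. Beyond the smaller number of libraries, the cause of these changes was not tested. Over all other comparisons of settings, on single genes and on counts of genes, 448 stayed the same, 79 lost the threshold and 10 moved. All 79 losses were of single genes called between CA1 and neurons. The 10 that moved were counts of genes with a low unadjusted p under knockdown or in the difference of its effects. The 448 include genes never called under knockdown, which had no call to lose, so they do not measure how stable the called genes were.

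With the replicate block, the median was 0.15 in CA1 and 0.26 in neurons, and 1 gene in CA1, Homer2, and 5 in neurons had an unadjusted p under 0.05. In neurons all 5 were higher, where 3.14% of all genes were, and in CA1 the share of all genes was not counted. Between the systems the block joins CA1 and neuron libraries by number alone, and no source relates them. Their deviations correlated at 0.189, 0.445 and 0.0935 in the shBrpf1 and at -0.251, -0.171 and 0.154 in the scramble libraries. On this arbitrary pairing the block gave 11 higher and 1 lower in the shBrpf1 libraries (median 0.62) and 9 higher and 1 lower in the scramble libraries (median 0.67). Of all genes, 10.8% were then higher and 11.8% lower in the shBrpf1 libraries, and 6.42% and 9.58% in the scramble libraries. The median difference of the knockdown effects was -0.08 with it. No call at an adjusted p under 0.05 was made or lost with the block in either knockdown comparison. The lowest count of the 32 genes in any library was 198.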

Other observations

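Xist, the RNA that coats the inactive X chromosome in female cells, had 20340 counts in shBrpf1 CA1 replicate 3 and 20003 counts in scramble CA1 replicate 3, against 10 to 23 counts in the other 4 CA1 libraries. The neuron libraries held 5381 to 19058 counts, lowest in replicate 1 of both groups. Dlg3, Iqsec2 and Cnksr2 are the 3 X-linked genes among the 32, and the part of sex in their values was not tested.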
